A study of Macaca mulatta with 39 samples.

Results

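The expression of 8 transcription factors that pattern the limb and other mesenchyme was examined: PRRX1, SHOX2, ALX1, ALX4, TBX3, EMX2, FOXF2 and NR2F2. They were chosen by gene symbol, with earlier results of these data known, and every probe set of each gene was taken. They came to 8 of the 14132 named genes and 15 of the 52033 probe sets tested. Messenger RNA was measured in cultured rhesus macaque cells on single-colour oligonucleotide arrays, and each value is a log2 signal, so a difference of 1 is a 2-fold difference in signal. The 39 arrays came from 13 cell sources with 3 arrays each, which the labels call biological triplicates.

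Pluripotent cells were embryonic stem cells (ESCs) of the male line 3106 and the female line 3806, each a single source. Teratoma fibroblasts were explant cultures of teratomas, tumours of many tissues that ESCs form, raised here in immune-compromised mice. Line 3106 gave 5 of these cultures (TA31 to TE31) and line 3806 gave 3 (TA38 to TC38). A teratoma culture therefore carries the genome of its line, and whether mouse cells of the host remained in it is not stated. Skin fibroblasts (cultures M032, M088 and M106p1) grew from skin explants of macaques whose gametes gave rise to the lines. No group carried a transgene, deletion or drug treatment according to the labels, and neither the animals' ages nor the body site of the skin is given in the sources used here. The comparison of ESCs with both fibroblast kinds asks how pluripotent cells differ from differentiated ones when the genome is the same or related.

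Homeobox, T-box, forkhead and orphan nuclear receptor proteins bind DNA and give mesenchyme its position in the embryo. PRRX1, SHOX2, ALX1 and ALX4 belong to the paired-related homeobox genes of limb bud and craniofacial mesenchyme. There, SHOX2 is needed for the proximal limb segment, the one nearest the trunk, and ALX genes for the face. TBX3 is a T-box repressor of the limb margins, EMX2 a homeobox factor of the urogenital tract, forebrain and shoulder girdle, FOXF2 a forkhead factor of gut and palate mesenchyme, and NR2F2 (COUP-TFII) an orphan nuclear receptor of mesenchyme and veins. Fibroblasts in culture are known to keep part of the positional programme of the tissue they came from.

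A total of 3 arrays were left out because their profiles were those of other sources. The array labelled C3806c, an ESC label, correlated at r = 0.9976 with TC38 and at 0.915 with the other arrays of its own source. The array labelled M106p1f correlated at 0.9983 with TD31, and the array labelled TB31c at 0.997 with M106p1. Their patterning factors followed suit: SHOX2 read 8.05 on C3806c against source means of 8.03 in TC38 and 4.55 in C3806. Array medians lay between 6.25 and 6.48. A background mark was set on each array at the 95th percentile of its viral probe sets (median 6.72 over arrays). All 6 measured pluripotency markers were above it in both ESC lines, with list means of 11.59 to 11.69 against 4.91 to 5.20 in fibroblasts. All 7 measured fibroblast markers were above it in every fibroblast culture, and 4 of the 7 were in both ESC lines. Their list means were 6.93 to 7.01 in ESCs and 11.37 to 11.90 in fibroblasts. Lumican (LUM) read 3.23 and 3.70 in the ESC lines and at least 11.84 elsewhere. The collagen gene COL1A2 read 9.74 and 9.78 in the ESC lines and at least 13.59 elsewhere. On the ESC array C3806a the 3′ actin probe set exceeded the 5′ one by 3.89, while no other array exceeded 0.78.

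PRRX1, a homeobox gene that marks limb and skin mesenchyme, had the largest measured difference of the 8 genes between ESCs and fibroblasts when the brightest probe set of each was taken. On its main probe set (MmugDNA.9591.1.S1_at; the main set of a gene is the one with the highest mean over sources) the 5 ESC arrays read 4.0, 4.24 and 4.56 in line 3106 and 4.14 and 4.65 in line 3806, all below the background mark. The 23 teratoma arrays ran from 10.35 through a median of 10.95 to 11.47, and the 8 skin arrays from 11.22 through 11.50 to 12.37. Every fibroblast array thus lay far above every ESC array, and M032, at 12.33 ± 0.03 (SD, n = 3 arrays), was the highest culture. Mean signal over sources was 4.33 ± 0.09 (SD, n = 2) in ESCs, 10.93 ± 0.35 (n = 8) in teratoma fibroblasts and 11.69 ± 0.56 (n = 3) in skin fibroblasts. PRRX1 was lower in ESCs than in teratoma fibroblasts by a log2 difference of -6.61 (95% interval -7.28 to -5.93, limma adjusted p = 1.19e-07), and lower than in skin fibroblasts by -7.36 (adjusted p = 1.89e-07). No ESC array was above background for PRRX1, SHOX2, TBX3, EMX2 or FOXF2, and 1 of 5 was for NR2F2, so their differences from ESCs are set against a signal at background and are given with no fold. The other probe set of PRRX1 (MmuSTS.3705.1.S1_at) gave -4.34 and -5.14, both past the same threshold. These were smaller in size than the main-set differences of NR2F2 from teratoma fibroblasts (-5.64) and of SHOX2 from skin (-5.83).

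SHOX2 is the paired-related factor of the proximal limb, the palate and the heart's pacemaker region. It was also near the floor in ESCs but spread widely among fibroblasts. On its main probe set (MmugDNA.3283.1.S1_at) the ESC arrays read 3.84, 3.72 and 3.76 in line 3106 and 4.74 and 4.36 in line 3806. Teratoma arrays ran from 6.18 through a median of 8.10 to 10.69, and skin arrays from 9.61 through 10.12 to 10.25. The ESC arrays did not overlap either fibroblast kind, whereas teratoma arrays lay both below and above the skin arrays. Source means were 4.16 ± 0.55 (SD, n = 2) in ESCs, 8.22 ± 1.31 (n = 8) in teratoma fibroblasts, and 9.63, 10.18 and 10.19 in the skin cultures. The difference of ESCs from teratoma fibroblasts was -4.05 (interval -5.98 to -2.11, limma adjusted p = 0.00456) and from skin -5.83 (-8.05 to -3.61, adjusted p = 0.00109). The probe set MmugDNA.29570.1.S1_at was dimmer and was called against skin (-3.44, adjusted p = 0.0144) but not against teratoma fibroblasts (-1.70, adjusted p = 0.141). The probe set MmugDNA.1317.1.S1_at stayed near background, with -0.28 and -0.86, neither called.

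ALX1 and ALX4, the craniofacial members of the family, had no difference past the threshold between cell types. ALX1 read 4.72 to 5.30 on the ESC arrays, 4.83 to 6.32 on the teratoma arrays and 4.83 to 5.28 on the skin arrays, so the groups overlapped and no array was above its background mark. Its differences were -0.60 for ESCs against teratoma fibroblasts (interval -1.28 to 0.08, limma adjusted p = 0.173) and -0.06 against skin (-0.84 to 0.72, adjusted p = 0.92). ALX4 lay between 6.65 and 7.08 on all 36 arrays, just above the background mark. Its differences were -0.04 (interval -0.20 to 0.13) and -0.05 (-0.23 to 0.14). A 2-fold change lies outside both intervals for ALX4, at a signal that was close to background in every source.

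TBX3, the T-box factor of limb margins and mammary buds, is also known in pluripotent cells of the mouse, yet its signal here was low in both ESC lines. The main probe set (MmuSTS.4559.1.S1_at) read 4.67 to 5.11 on the ESC arrays, 6.66 through a median of 8.43 to 10.36 on the teratoma arrays and 8.23 through 8.78 to 10.03 on the skin arrays. ESC and fibroblast arrays did not overlap, and teratoma and skin arrays covered much the same span. TBX3 was lower in ESCs by -3.85 against teratoma fibroblasts (interval -5.57 to -2.14, limma adjusted p = 0.00301) and by -4.14 against skin (-6.11 to -2.16, adjusted p = 0.00425). The probe set MmugDNA.37421.1.S1_at had the same sign and missed the threshold (-1.32, adjusted p = 0.0586, and -1.55, adjusted p = 0.0526). The sets MmugDNA.31809.1.S1_at and MmugDNA.21318.1.S1_at were below background on every array and gave differences of 0.25 or less in size, in opposite directions.

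EMX2, which is needed for the kidney, genital tract and scapula, read 4.23 to 4.49 on the ESC arrays, 6.40 through 7.72 to 9.33 on the teratoma arrays and 8.94 through 9.43 to 9.72 on the skin arrays. Only the teratoma culture TA31 reached into the span of the skin cultures. EMX2 was lower in ESCs by -3.30 against teratoma fibroblasts (interval -4.59 to -2.01, limma adjusted p = 0.00133) and by -4.97 against skin (-6.45 to -3.49, adjusted p = 0.00022).

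FOXF2, the forkhead factor that gut and palate mesenchyme express in response to hedgehog signals, read 5.21 to 5.76 on the ESC arrays, 8.09 through 8.98 to 10.54 on the teratoma arrays and 8.10 through 8.84 to 9.37 on the skin arrays. Fibroblast arrays were all above background and ESC arrays all below it. FOXF2 was lower in ESCs by -3.91 against teratoma fibroblasts (interval -4.56 to -3.26, limma adjusted p = 3.67e-06) and by -3.42 against skin (-4.17 to -2.68, adjusted p = 2.72e-05).

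NR2F2, a nuclear receptor that is known as a repressor of the pluripotency gene POU5F1, was the gene with the most uneven ESC readings. The main probe set (MmuSTS.3024.1.S1_at) read 4.64, 5.05 and 4.51 in line 3106, and 4.58 and 6.81 on the arrays C3806a and C3806b of line 3806. Teratoma arrays ran from 9.41 through a median of 10.94 to 11.51, and skin arrays from 8.05 through 9.60 to 10.54. Even the high ESC array was below all fibroblast arrays. NR2F2 was lower in ESCs by -5.64 against teratoma fibroblasts (interval -6.86 to -4.41, limma adjusted p = 2.48e-05) and by -4.21 against skin (-5.62 to -2.81, adjusted p = 0.000468). The probe set MmugDNA.39344.1.S1_at gave -4.93 and -3.47, both called. Without C3806a, the array with the wide actin gap, line 3806 rests on C3806b alone and the main set gave -5.08 and -3.65, both still called.

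**Figure D1:**
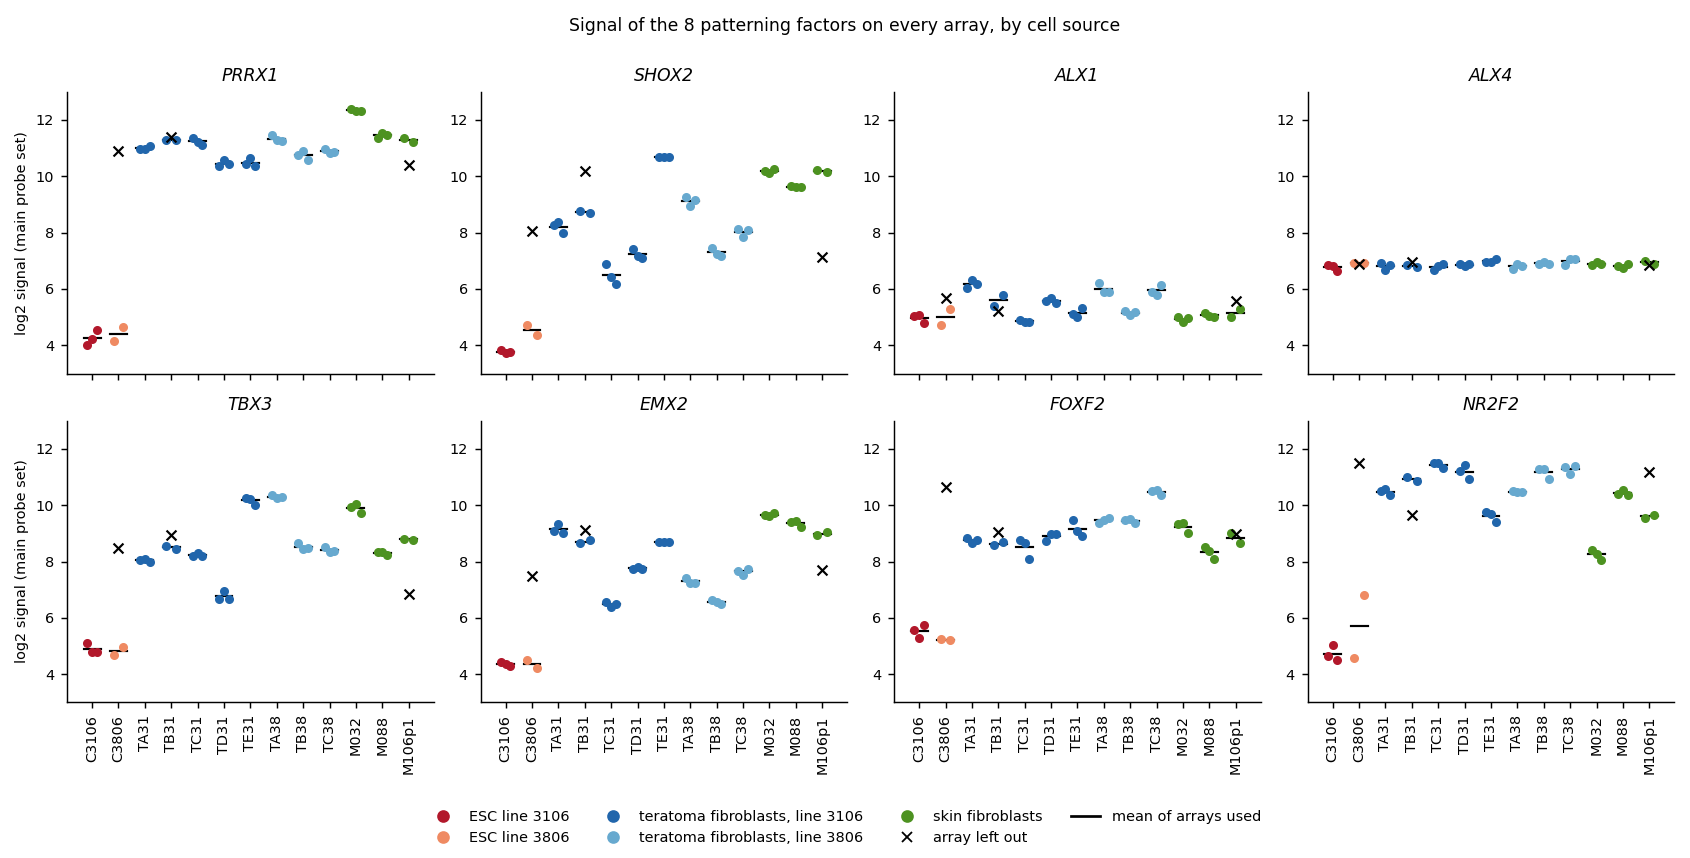
Log2 signal of the main probe set of each of the 8 genes (y axis) on every array, by cell source (x axis). Points are arrays, bars are means of the arrays used and crosses are the 3 arrays left out. PRRX1 shows the largest measured gap between ESCs (4.0 to 4.65) and fibroblasts (10.35 to 12.37), while ALX4 stays between 6.65 and 7.08 throughout.

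Counted together, 6 of the 8 main probe sets, and 8 of all 15, were called lower in ESCs than in teratoma fibroblasts, and none was called higher. A call needed a Benjamini-Hochberg adjusted p under 0.05 over all 52033 probe sets and a log2 difference of at least 1. Of all probe sets 6.23% were called lower by this rule, and 8.12% of the main probe sets of named genes. Against skin, 6 of the 8 main sets and 9 of the 15 were called lower and none higher, beside 7.16% of all probe sets and 9.67% of main sets. The genes called were PRRX1, SHOX2, TBX3, EMX2, FOXF2 and NR2F2 both times. These comparisons share the ESC sources, so the second count is no independent repeat of the first. The 8 genes were chosen with earlier results of these data known, so counts above these shares are descriptions and no test of the set. The median difference of the 8 genes was -3.88 against teratoma fibroblasts and -4.17 against skin, where the median of all named genes was 0.02 and 0.03. Source means of the 2 cell types did not overlap for the same number of main sets, 6 of 8, in each comparison; over all probe sets this held for 37.6% and 53.4%. In RNA from whole cultures, fewer cells that express a gene and less RNA per cell cannot be told apart.

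**Figure D2:**
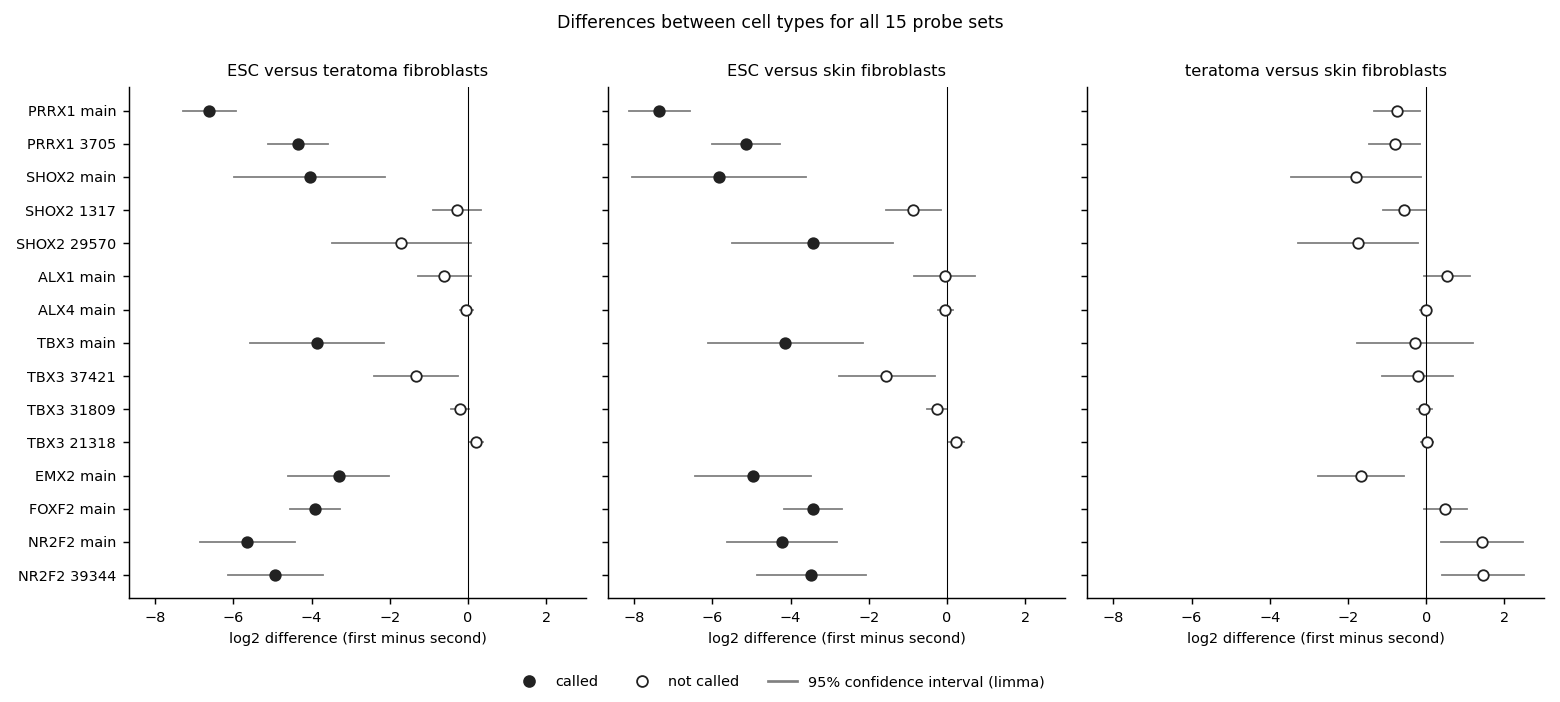
Log2 difference (x axis, first cell type minus second) of all 15 probe sets in the comparisons between cell types, with limma's 95% interval as a line; numbers after a gene are the middle part of the identifier of its other probe sets. Filled points were called. PRRX1 and NR2F2 were called on both of their probe sets against each fibroblast kind, and no probe set was called between teratoma and skin fibroblasts.

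The ESC to teratoma differences above are means of the 2 within-line differences, so the calls below are their parts and no repeat. Within line 3106, all 6 genes were called lower in ESCs than in the 5 teratoma cultures. Of the probe sets 8 of 15 were called lower, beside 4.98% of all probe sets and 6.99% of main sets. Differences ran from -6.62 for PRRX1 (limma adjusted p = 2.92e-06) to -3.25 for FOXF2 (adjusted p = 0.000276), and TBX3 was closest to the threshold (-3.45, adjusted p = 0.0431). The TBX3 call was lost when any of 7 cultures was left out, with adjusted p between 0.0503 and 0.0693. Within line 3806, 5 of 8 main sets and 7 of 15 were called lower, beside 7.03% of main sets and 5.67% of all sets. SHOX2 missed the threshold there (-3.60, interval -6.41 to -0.79, adjusted p = 0.0666), while TBX3 (-4.26), FOXF2 (-4.57), EMX2 (-2.81), PRRX1 (-6.59) and NR2F2 (-5.28) passed it. The EMX2 call, with adjusted p = 0.0352, was lost without TA38 or TC38 (adjusted p = 0.0716 and 0.0793). SHOX2 was called there without TC31 or TE31 (adjusted p = 0.0445 and 0.0133), both of line 3106, whose spread enters the fit. It was also called in the fit over arrays with the source as a random block (-3.60, adjusted p = 0.000291). The latter assumes 1 correlation between arrays of a source for all probe sets, and called 6843 of all 52033. With all 39 arrays under their labels, C3806c included, TBX3 (-3.04, adjusted p = 0.133) and EMX2 (-1.77, adjusted p = 0.267) were not called.

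Whether the gap from ESCs to teratoma fibroblasts was itself unequal in the 2 lines was tested as an interaction, and no probe set of the 8 genes was called (0.15% of all probe sets were). By limma's unadjusted p, 1 of the 15 was under 0.05, beside 8.05% of all probe sets. That was FOXF2, with -1.32 (interval -2.62 to -0.02, adjusted p = 0.612), its gap being the wider one in line 3806. The ESC lines themselves can be compared only over arrays, which measure the spread within a source. No probe set of the 8 genes was called between them (1.34% of all were), although 4 of the 15 had an unadjusted p under 0.05 (23.5% of all). SHOX2 was higher in line 3806 by 0.78 (limma adjusted p = 0.00165), under the limit of 1, at signals below background in both lines. NR2F2 was higher there by 0.96 (adjusted p = 0.0504), and by 2.08 (adjusted p = 9.82e-09) without C3806a. The latter sets 1 array of line 3806 against line 3106 and assumes that the lone array varies as arrays of the other sources do. With all 39 arrays it was higher by 2.90 (adjusted p = 0.0394), C3806c included.

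Between teratoma and skin fibroblasts no probe set of the 8 genes was called, where 0.65% of all probe sets were. By limma's unadjusted p, 8 of the 15 were under 0.05, beside 17.7% of all, and 4 of the 8 main sets. These were EMX2, with a mean of 7.79 ± 1.00 (SD, n = 8) in teratoma fibroblasts and 9.33 ± 0.34 (n = 3) in skin (-1.67, interval -2.78 to -0.56, adjusted p = 0.111), SHOX2 (-1.79, -3.45 to -0.13, adjusted p = 0.244), PRRX1 (-0.76, -1.34 to -0.17, adjusted p = 0.163) and NR2F2. NR2F2 had the opposite sign, with 10.82 ± 0.60 in teratoma fibroblasts and 9.43 ± 1.10 in skin (1.42, interval 0.37 to 2.48, adjusted p = 0.148), and its second probe set gave 1.45. TBX3 (-0.28, -1.76 to 1.19) and FOXF2 (0.49, -0.07 to 1.04) had intervals that include 0. Source means overlapped between the 2 fibroblast kinds for all 15 probe sets, while for 5.75% of all probe sets they did not. A fit over arrays with the source as a random block called SHOX2 (-1.79, adjusted p = 0.00317) and EMX2 (-1.70, adjusted p = 4.55e-05) lower and NR2F2 higher (1.43, adjusted p = 0.00219) in teratoma fibroblasts. That fit called 1412 of all 52033 probe sets, where the fit over sources called 338. It assumes 1 correlation between arrays of a source for all probe sets. Its p can thus be too small for a gene whose sources differ widely, such as SHOX2. Without TE31, the culture with the highest SHOX2, SHOX2 was also called in the fit over sources (-2.09, adjusted p = 0.0491).

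Cultures of the same kind differed from each other strongly in these genes. Teratoma cultures of line 3106 share a genome, yet 5 of the 8 main sets and 9 of the 15 differed among them by limma's F test with a range of at least 1, beside 11.5% of main sets and 8.17% of all sets. These F tests rest on the spread between arrays of a culture. SHOX2 had the widest range, 4.18 (adjusted p = 8.02e-20), from 6.50 ± 0.35 (SD, n = 3 arrays) in TC31 to 10.68 ± 0.01 in TE31. In TC31 1 of the 3 arrays was above background. Its dim probe sets ranked TE31 highest too, and MmugDNA.29570.1.S1_at ranged over 3.98. TBX3 ranged over 3.41 (adjusted p = 7.91e-20), with TD31 lowest at 6.76 ± 0.15 and TE31 highest at 10.17 ± 0.13. EMX2 ranged over 2.66 (adjusted p = 1.24e-19), with TC31 lowest at 6.48 ± 0.08 and TA31 highest at 9.14 ± 0.17.

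NR2F2 ranged over 1.82 in these 5 cultures (limma adjusted p = 3.58e-05), with TE31 lowest at 9.61 ± 0.18 (SD, n = 3 arrays) and TC31 highest at 11.43 ± 0.11, and over 0.96 (adjusted p = 0.105) without TE31. The same range was not called with all 39 arrays (adjusted p = 0.414). ALX1 ranged over 1.32 (adjusted p = 2.83e-08), at signals below background, and over 0.74 without TA31. PRRX1 (0.83) and FOXF2 (0.65) had adjusted p under 0.05 but a range under 1. TE31 was the highest of the 5 cultures in SHOX2, TBX3, FOXF2 and ALX4 and the lowest in NR2F2. For how many of all genes TE31 stood at an end was not computed. FOXF2 and ALX4, among these genes, did not set it apart. The FOXF2 arrays of TE31 and TD31 overlapped, and ALX4 ranged over 0.19 (limma adjusted p = 0.281). Against the mean of its sister cultures TE31 was higher by 3.01 in SHOX2, 2.29 in TBX3, 0.45 in FOXF2 and 0.17 in ALX4, and its NR2F2 differed by -1.39.

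Among the 3 teratoma cultures of line 3806, 4 of the 8 main sets and 7 of the 15 were called by the F test, beside 5.08% and 3.71% of all. TBX3 ranged over 1.89 (limma adjusted p = 3.13e-15), with TA38 at 10.31 ± 0.05 (SD, n = 3 arrays) and the other cultures at 8.52 ± 0.12 and 8.42 ± 0.09, so that TA38 made the range: without it, TB38 and TC38 differed by 0.10. SHOX2 ranged over 1.83 (adjusted p = 3.34e-11), also with TA38 highest at 9.13 ± 0.16, and over 0.73 without TA38. FOXF2 ranged over 1.01 (adjusted p = 4.76e-06), with TC38 apart at 10.47 ± 0.11, and TA38 and TB38 differed by 0.01. EMX2 ranged over 1.08 (adjusted p = 3.42e-10), from 6.56 ± 0.07 in TB38 to 7.65 ± 0.12 in TC38. It fell under the limit without TB38 (0.34) or TC38 (0.74). Without TA38, and likewise without TC38, 2 of the 8 genes were called, beside 586 and 1196 of all 52033 probe sets. SHOX2, FOXF2 and EMX2 were not called with all 39 arrays (limma adjusted p = 0.159, 0.545 and 0.257). None of the arrays put back is labelled as one of these cultures, so the ranges stayed at 1.83, 1.01 and 1.08. What changed was the spread between arrays, which the F tests take from all 13 sources together.

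Among skin cultures, 3 of the 8 main sets and 6 of the 15 were called, beside 8.74% and 6.26% of all, and M032 set each of the 3 apart. NR2F2 ranged over 2.18 (limma adjusted p = 1.48e-06), with M032 at 8.25 ± 0.19 (SD, n = 3 arrays), M106p1 at 9.60 ± 0.06 (n = 2) and M088 at 10.43 ± 0.09 (n = 3). TBX3 ranged over 1.59 (adjusted p = 8.68e-13), with M032 highest at 9.89 ± 0.15. PRRX1 ranged over 1.04 (adjusted p = 1.91e-07), again with M032 highest. Without M032 the ranges were 0.83, 0.48 and 0.16, and none of the 8 genes was called, where 1688 of all 52033 probe sets were. PRRX1 also fell under the limit without M106p1 (0.88), and with all 39 arrays NR2F2 and PRRX1 were not called (adjusted p = 0.151 and 0.586). SHOX2 and EMX2 ranged over 0.56 and 0.67 in skin, less than among the teratoma cultures of either line. That contrast was not tested.

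**Figure D3:**
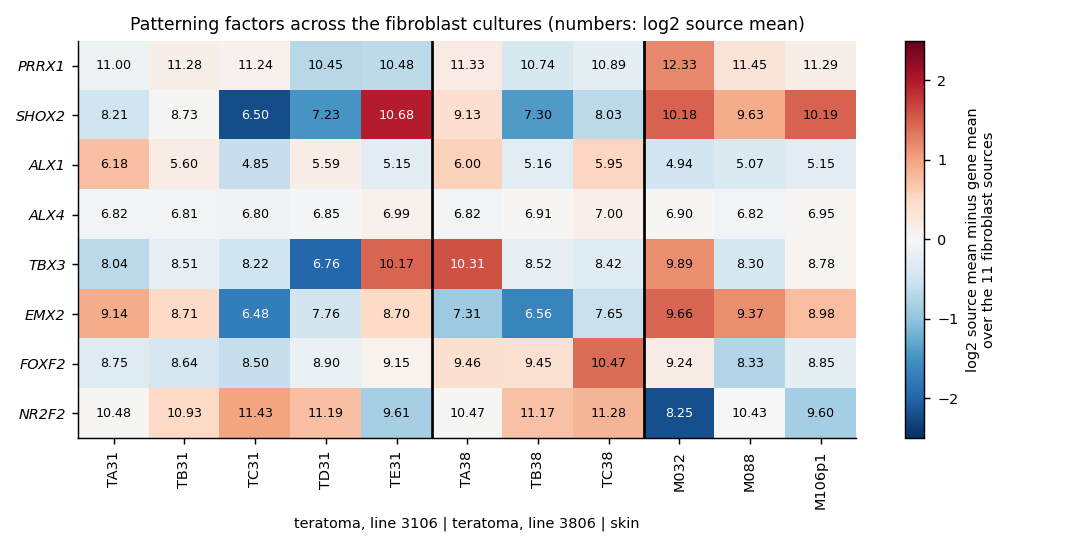
Source means of the 8 genes in the 11 fibroblast cultures (printed numbers, log2 signal), coloured by their distance from the mean of the same gene over these cultures. Black lines part the teratoma cultures of line 3106, those of line 3806 and skin. SHOX2 runs from 6.50 in TC31 to 10.68 in TE31, and NR2F2 from 8.25 in M032 to 11.43 in TC31.

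Ordered by level over the 13 sources, SHOX2 ran from TE31 through the 3 skin cultures to TA38, TB31, TA31, TC38, TB38, TD31 and TC31, with both ESC lines last. Its neighbours M106p1 and M032, TA31 and TC38, and TB38 and TD31 overlapped in their arrays, and the other neighbours did not. TBX3 was highest in TA38, TE31 and M032, then came a middle group of 7 cultures between 8.78 and 8.04, then TD31 and the ESC lines. Within that middle group the arrays of TB38, TB31, TC38, M088 and TC31 overlapped from neighbour to neighbour. FOXF2 was highest in TC38, and all further fibroblast neighbours down to M088 (8.33) overlapped. EMX2 was highest in M032 and M088 and lowest among fibroblasts in TB38 and TC31, whose arrays overlapped.

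PRRX1 set M032 apart at the top, and below it the arrays of neighbours overlapped down to TD31, except between TC31 and TA31. NR2F2 began with TC31, TC38, TD31, TB38 and TB31, which overlapped from neighbour to neighbour, followed by TA31, TA38 and M088, then TE31 and M106p1, then M032. In each of the 6 genes both ESC lines came last, and their arrays overlapped with each other for TBX3, EMX2, PRRX1 and NR2F2.

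Between the teratoma fibroblasts of line 3806 and those of line 3106 no probe set of the 8 genes was called, where 0.0269% of all probe sets were. By limma's unadjusted p 1 of the 15 was under 0.05, beside 4.81% of all. That was FOXF2, higher in line 3806 by 1.00 (interval 0.41 to 1.60, unadjusted p = 0.00371, adjusted p = 0.496). Its source means did not overlap, with TB38, TA38 and TC38 at 9.45, 9.46 and 10.47 and the cultures of line 3106 between 8.50 and 9.15; 4.02% of all probe sets had such a gap. EMX2 had the opposite sign (-0.99, interval -2.17 to 0.20), with TA31, TB31, TD31 and TE31 above every culture of line 3806. SHOX2 (-0.12), PRRX1 (0.10) and NR2F2 (0.25) were near 0, with an interval of -1.90 to 1.66 for SHOX2.

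Across the 11 fibroblast cultures, the 8 genes did not move as a block. SHOX2 and NR2F2 ran in opposite directions (Pearson r = -0.83, Spearman rho = -0.93, n = 11), a pair singled out of the 28 after its values were seen. With the 2 cultures farthest from the median SHOX2 left out, r was -0.81 (n = 9), and over the 8 teratoma cultures alone it was -0.91. SHOX2 went with EMX2 (r = 0.76, rho = 0.64) and TBX3 (r = 0.68, rho = 0.69), whereas TBX3 and EMX2 hardly moved together (r = 0.18). EMX2 and NR2F2 had r = -0.72. FOXF2 had r = -0.03 with SHOX2 and 0.06 with NR2F2. These correlations are descriptions: cultures of a line share a genome, and the values of an array share its normalisation.

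**Figure D4:**
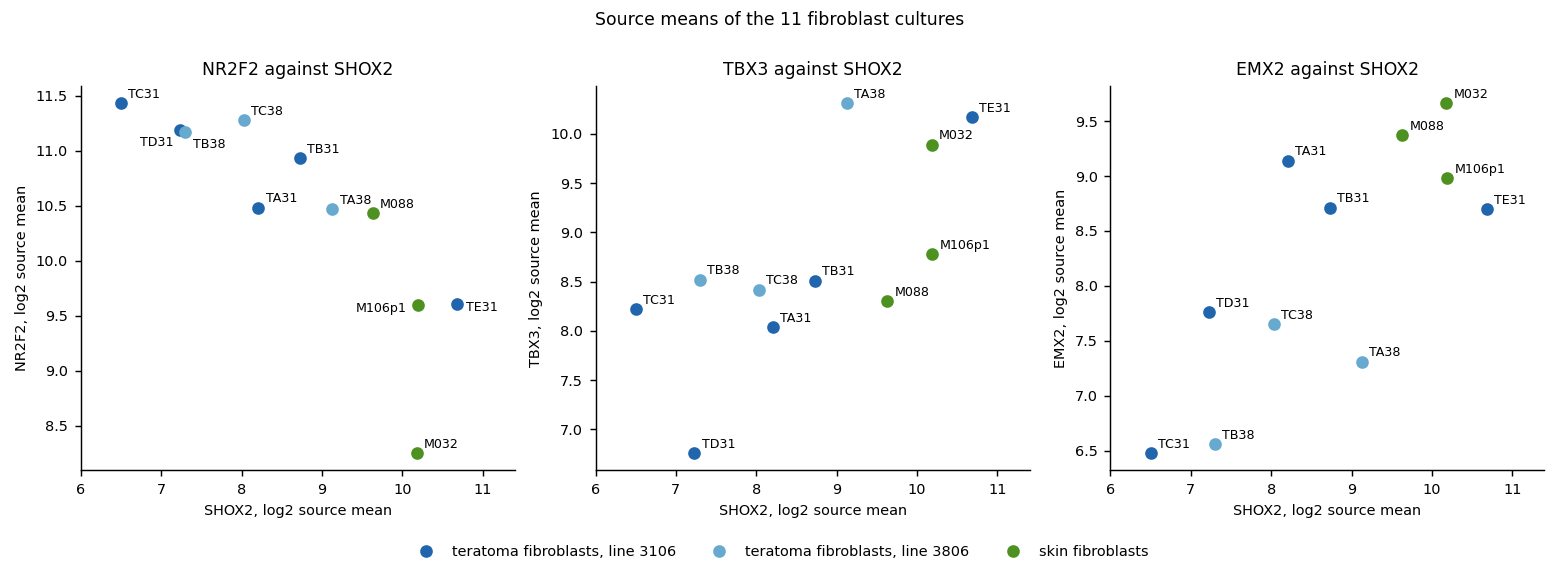
Source means (log2 signal) of NR2F2, TBX3 and EMX2 on the y axes against SHOX2 on the x axis, with 1 point for each of the 11 fibroblast cultures. NR2F2 falls as SHOX2 rises (r = -0.83), TC31 and TE31 being the ends of SHOX2, while TBX3 (r = 0.68) and EMX2 (r = 0.76) rise with more scatter.

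Most of the other probe sets followed the main ones across these cultures, dim ones among them. Those of SHOX2 were above background on only 3 and 8 of the 31 fibroblast arrays. Correlations with the main set were 0.95 and 0.99 for SHOX2, 0.96 for PRRX1, 0.98 for NR2F2, and 0.97, 0.66 and 0.32 for TBX3, the lowest belonging to sets that stayed below background. Among the 1640 named genes with an SD of at least 0.5 over the 11 cultures, those most like SHOX2 were SYNPO2 (r = 0.965), which encodes an actin-binding protein, and ANGPTL2 (r = 0.953), a secreted angiopoietin-like protein. Those most like NR2F2 were RAB3IP (r = 0.956) and TET3 (r = 0.949), a DNA demethylation enzyme. For TBX3 they were CCDC69 (0.897) and CPXM1 (0.88), for EMX2 PON3 (0.845) and PAK1 (0.843), for PRRX1 MAST4 (0.86) and CCND1 (0.841), and for FOXF2 ERAP1 (0.84) and FUOM (0.784). ALX1 and ALX4, with SDs of 0.46 and 0.08, were below that minimum and were not matched.

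At most 2 of the 8 genes fell inside the span of the 3 skin cultures in any teratoma culture. No share over all genes was computed for this count, so it is not read as a trait of these 8 genes. The skin spans of ALX1 and ALX4 were only 0.21 and 0.13 wide, at signals below or close to background. There were 2 each in TA31 (FOXF2 and EMX2), TB31 (TBX3 and FOXF2), TB38 (TBX3 and ALX4), TD31 (FOXF2 and ALX4) and TE31 (FOXF2 and NR2F2). The root mean square distance to the skin mean was smallest in TE31 (0.70) and TB31 (0.79) and largest in TD31 (1.59) and TC31 (1.78). TE31 was nearer to skin than to its sister cultures, from which it lay 1.47 away. TB31 and TA31 were also near skin but nearer to their sisters, at 0.39 and 0.56.

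Markers of other cell types differed among the same cultures. The mean of 6 skeletal muscle markers was 9.09 in TB31, 8.75 in TD31, 7.68 in TA38 and 7.34 in TB38, and between 5.48 and 6.28 in the other sources. Embryonic myosin (MYH3) read 12.18 in TB31 and 11.80 in TD31 against 4.51 in TE31. TD31, lowest in TBX3, and TB31, in the middle for TBX3, were thus both high in muscle markers. The mean of 5 neural markers ran from 8.51 to 9.06 in TA31, TA38, TB38 and TC38 and was 7.98 in TC31. It lay between 6.85 and 7.51 in TB31, TD31 and TE31 and in skin, and was 8.23 to 8.41 in the ESC lines. Between teratoma and skin fibroblasts none of the 5 was called, with a median difference of 0.09. SOX2 read 10.33 in TA31, 9.37 in TA38, 10.90 in TB38, 8.94 in TC38 and 7.90 in TC31, and at most 5.02 in the other fibroblast cultures. PAX6 split these cultures the same way, with 10.29 in TA31, 11.05 in TA38, 9.58 in TB38, 8.87 in TC38 and 8.2 in TC31. It read at most 6.37 in the other fibroblast cultures. Values of the other neural markers are not given, so a rise of the list as a whole is not shown. EMX2, also a forebrain gene, was highest among teratoma cultures in TA31 and among the lowest in TB38, both high in SOX2. No leukocyte marker was above background in any source, and of 3 keratinocyte markers at most 1 was. All 4 measured smooth muscle markers were above background in every fibroblast culture. Their mean was 9.07 to 9.24 in the ESC lines, 9.43 to 10.82 in teratoma cultures and 10.24 to 11.64 in skin. Among teratoma cultures it was highest in TE31, the highest in SHOX2, and lowest in TD31 (9.43) and TC31 (9.88), the lowest in SHOX2. This match was singled out after its values were seen. In skin, M088 and M106p1 read 11.35 and 11.64, above every teratoma culture. M032 read 10.24, below TA31 (10.54), though its SHOX2 (10.18) was above that of TA31 (8.21). The part of muscle and neural cells in these differences was not tested.

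The other genes of limb and mesenchyme patterning were followed in 4 lists, of which 48 of 69 genes were measured. In ESCs against teratoma fibroblasts 13 of the 48 were called lower and none higher, with a median difference of -0.46 where all named genes had 0.02. Against skin 13 were called lower and none higher, with a median of -0.27 beside 0.03. Of the main probe sets of all named genes 8.12% and 9.67% were called lower in these comparisons, and the counts of each list are to be read against these shares. The lists were chosen with earlier results of these data known, so an excess over the shares is no test of a list. With all 39 arrays under their labels the counts of genes called lower were 13 and 11, for which no share over all named genes is given. The shares above come from the fit without the arrays left out, so these counts cannot be read against them. Whether they exceed the share in their own fit was not tested.

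Of 10 measured relatives of the 8 genes, 3 were called lower in ESCs than in teratoma fibroblasts and 4 lower than in skin. NR2F1, the twin receptor of NR2F2, had means of 5.06 in ESCs, 11.53 in teratoma fibroblasts and 10.85 in skin, with differences of -6.53 (limma adjusted p = 1.19e-07) and -5.80 (adjusted p = 8.67e-07). TBX15, a T-box factor of skin and skeleton, gave -2.53 and -3.02, and PRRX2, the paralogue of PRRX1, -1.87 and -2.71. FOXF1, the paralogue of FOXF2, was called against skin (-1.10, limma adjusted p = 0.0214) and gave -0.62, not called, against teratoma fibroblasts. The limb type factors TBX5 and TBX4, of fore and hind limb, had differences of 0.09 or less in size on their main probe sets in both comparisons. They were named after their values were seen.

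Of 13 measured limb bud and skeletal factors, 5 were called lower in ESCs in each comparison: the MEIS homeobox genes of the proximal limb, MEIS1 (-3.82 against teratoma fibroblasts and -3.29 against skin) and MEIS2 (-3.40 and -3.59), the Iroquois genes IRX5 (-2.43 and -3.11) and IRX3, and MSX1 (-1.99 and -2.71), a target of BMP signals. IRX3 gave -1.59 and -2.05. Adjusted p of these 5 lay at or below 0.00284 against teratoma fibroblasts and at or below 0.00799 against skin, by limma.

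Of 8 measured signal genes, 1 was called lower in ESCs in each comparison, which is near the share of all named genes: WNT5A, which drives limb outgrowth (-2.85, limma adjusted p = 0.00236, and -3.46, adjusted p = 0.00159). BMP4, a bone morphogenetic protein, was the single gene of all 48 called between teratoma and skin fibroblasts. Its means were 8.92 in teratoma fibroblasts, 6.86 in skin and 8.50 in ESCs, a difference of 2.03 (adjusted p = 0.0463) that was not called with all 39 arrays. Of all main probe sets 0.977% were called in that comparison.

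Of 17 other mesenchyme factors, 4 were called lower in ESCs than in teratoma fibroblasts and 3 lower than in skin. The zinc finger repressors of the epithelial state, ZEB2 (-4.61 and -5.25) and ZEB1 (-1.87 and -2.10), and the forkhead gene FOXP1 (-2.12 and -1.17) were called in both. FOXC1, a forkhead factor of somites and eye, was called against teratoma fibroblasts (-3.90, limma adjusted p = 0.00441) and not against skin (-2.10, adjusted p = 0.122). TWIST1, named after its values were seen as a basic helix-loop-helix factor of limb mesenchyme, stood at 9.10 in ESCs, 9.02 in teratoma fibroblasts and 9.32 in skin, with differences of 0.07 and -0.22, neither called.

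**Figure D5:**
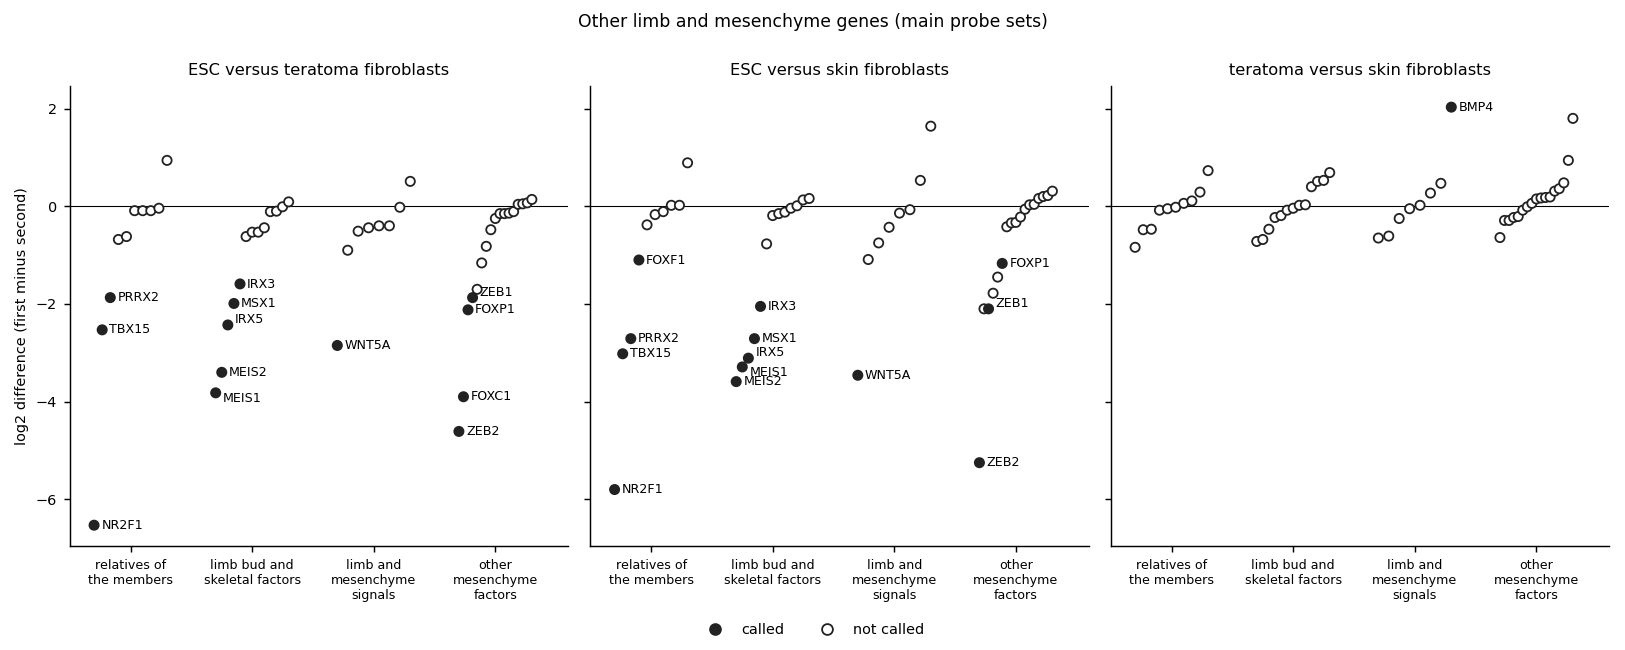
Log2 difference (y axis, first cell type minus second) of the 48 measured genes of the 4 lists (x axis), each point a gene's main probe set and filled where called. Called genes lie below 0 in both comparisons with ESCs, from NR2F1 at -6.53 and -5.80 upwards, and BMP4 at 2.03 is the only one between the fibroblast kinds.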

How the data were processed

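The deposited values are log2 signals, 1 for each of 52865 probe sets on each of 39 arrays. The submitters' processing notes name GCOS and RMA as the authors' tools. RMA corrects background, equalises the arrays' distributions and summarises the probes of a set; no version is given in the sources used here. The values ran from 2.11 to 14.18. Depth does not apply to arrays, whose number limits the precision.

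Control (158) and viral (674) probe sets were left out. Gene names came from the platform's annotation, which can be old: 24956 probe sets had 1 gene, covering 14132 genes. No genome build is named, so no positions are given, and no sequences were used here. Arrays were averaged by source and fitted with limma 3.58.1 in R 4.3.3 as 5 classes (8 residual degrees of freedom). Each ESC line is 1 source, so its spread was taken from the fibroblast classes. Both lines had equal weight in a contrast, so differences can depart slightly from those of plain means. F tests and the comparison of ESC lines used the 36 arrays (23 residual degrees of freedom), so only the spread between arrays enters them. Tests were two-sided. Nothing beyond the word biological in the labels says that arrays of a source came from separate cultures.

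All probe sets of the 8 genes are named. From each of the 4 lists, up to 4 called genes with the largest difference are named in each comparison between cell types, and for likeness the 2 genes with the highest Pearson r over the 11 fibroblast source means. IRX3, the fifth called gene of its list, is an exception. The 8 genes and all lists were chosen with earlier results of these data known. The fits were tested on simulated data. Alternatives covered the arrays used, the probe sets, the classes, the unit, variance moderation, filtering, normalization and each source left out.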

Additional observations from a re-analysis of the deposited data

How the results depend on the processing

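The calls of PRRX1, SHOX2, TBX3, EMX2, FOXF2 and NR2F2 in ESCs against teratoma fibroblasts and against skin kept direction and side of the threshold under every alternative run. In teratoma against skin fibroblasts, the fit over arrays with source as a random block called 1 gene higher and 2 lower. It called 1412 of all 52033 probe sets in either direction. Leaving out 1 source gave 0 to 1 lower, the 1 being without TE31, where 781 of all probe sets were called. With all 39 arrays, 3 genes were called lower in ESC line 3806 than in its teratoma fibroblasts, where 2604 of all 52033 probe sets were called in either direction. In that setting 1 was called higher in ESC line 3806 than in line 3106 (542 of all probe sets were called). Among the teratoma cultures of line 3806 it was 1 (1213 of all), and among skin cultures 1 (1931 of all). Leaving out 1 source gave 2 to 4 called among teratoma cultures of line 3806 and 0 to 3 among skin cultures. The lowest of these counts came with 586 and 1196 of all probe sets called without TA38 and TC38, and 1688 without M032.

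Differences that turned sign were uncalled in the main setting. With all 39 arrays these were ALX4 in teratoma against skin (0.01, and 0.01 with array medians), the interaction of TBX3 (0.44), FOXF2 (0.51) and ALX1 (0.01), and the ESC lines for TBX3 (1.16), FOXF2 (1.49) and EMX2 (1.03). Without C3806a they were ALX1 in ESCs against skin (0.08), its interaction (0.10) and TBX3 between ESC lines (0.09). The mean of probe sets turned TBX3 between ESC lines (0.15) and the PRRX1 interaction (-0.06), and renewed quantile normalization turned that interaction (-0.04) and ALX1 between ESC lines (-0.01). With 1 source left out, values ran from -0.10 to 0.03 for ALX4 in ESCs against teratoma, -0.11 to 0.02 for ALX4 against skin, -0.63 to 0.17 for TBX3 and -0.04 to 0.02 for ALX4 in teratoma against skin. Between teratoma fibroblasts of the lines they ran from -0.61 to 0.48 for SHOX2, -0.07 to 0.23 for PRRX1 and -0.03 to 0.50 for NR2F2, and for the PRRX1 interaction from -0.10 to 0.20. The cause was not tested.

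The mean of all probe sets of a gene ended the calls of SHOX2 (-2.21, limma adjusted p = 0.0983) and TBX3 (-1.21, adjusted p = 0.082) within line 3106 and of TBX3 within line 3806 (-1.38, adjusted p = 0.0615). No paired analysis was possible because array letters do not link arrays across sources. Signals of ALX1 and ALX4 near background limit what could be seen of them.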
